A study of Drosophila melanogaster with 3 samples.

Results

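The genes of the proteasome were examined in a map of Sox14 binding in Drosophila melanogaster, made by chromatin immunoprecipitation and sequencing (ChIP-seq). The members were the 48 protein-coding genes, of 13945 on the 6 chromosome arms with peaks, whose Ensembl symbols begin with Prosalpha, Prosbeta, Rpn and a number, or Rpt and a number. They comprised 32 subunit genes and 16 paralogues whose symbols carry the suffix T or R. The single group held 3 biological replicates of whole white prepupae, the stage at the onset of metamorphosis, from a transgenic line that stably expressed Sox14 with GFP fused to its C terminus. Males and females were pooled, and whole animals were used, so a peak averages over all tissues. The sample descriptions state an antibody against GFP, while the antibody field of the labels reads Sox14. The labels give no age and do not say whether untagged Sox14 was also present, and no untagged or control library was analysed here. A gene was counted as having a summit where the highest point of a peak lay within 1 kb of any of its transcription start sites (TSSs), on build dm6. The optimal list holds the peaks that the authors kept as reproducible, while their longer relaxed lists also take in background. The lists give a peak's signal on the authors' own scale, a scale that differs between lists, and no read counts, so the sequencing depth is unknown.

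The proteasome degrades proteins tagged with ubiquitin. Its core particle is a barrel of stacked rings, with outer rings of alpha subunits that gate the channel and inner rings of beta subunits that include the proteases. The core is capped by a regulatory particle, made of a base with the Rpt ATPases that unfold substrates and a lid that removes ubiquitin. Drosophila also has duplicated subunit genes, many of them expressed in the testis during sperm formation. Sox14 is an HMG-box transcription factor whose gene responds to ecdysone, the hormone that starts metamorphosis, when larval tissues are broken down.

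Sequences at some of the member summits are shown first, because they let a reader see which letters the motif counts rest on. They were read from RefSeq's Release 6 genome within 50 bases of each summit, on the strand of the proteasome gene, 5′ to 3′, and cut back to bases outside annotated exons. Capitals mark words found on either strand among the 9 motifs searched. Those of Rpn5 (chr3R:5789158-5789258), Rpn2 (chr3R:29153419-29153519), Rpt5 (chr3R:23752835-23752875) and Rpn11 (chr2L:5059831-5059931) belong to the strongest members for which such sequence could be shown. Those of Rpt6 (chrX:21315922-21316022), Rpn12 (chr3L:16582874-16582974) and Prosbeta3 (chr3R:9006257-9006357) were added after their values were seen, the last as an example from the core. Their summits were weaker, at ranks 7839, 5114 and 8123 of the optimal list. The sequences shown therefore do not give the share of members with a Sox word. Rpn11 and Prosbeta3 lie on the minus strand and the others on the plus strand of dm6.
Rpn5: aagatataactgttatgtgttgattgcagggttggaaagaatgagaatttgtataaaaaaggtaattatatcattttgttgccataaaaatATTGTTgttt
Rpn2: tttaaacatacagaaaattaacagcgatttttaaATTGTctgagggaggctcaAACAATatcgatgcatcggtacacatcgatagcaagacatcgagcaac
Rpt6: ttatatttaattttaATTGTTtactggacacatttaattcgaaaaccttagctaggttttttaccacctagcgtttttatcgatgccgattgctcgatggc
Rpn12: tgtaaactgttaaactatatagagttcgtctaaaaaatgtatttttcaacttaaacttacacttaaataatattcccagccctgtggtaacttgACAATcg
Rpt5: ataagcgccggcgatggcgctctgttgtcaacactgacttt
Rpn11: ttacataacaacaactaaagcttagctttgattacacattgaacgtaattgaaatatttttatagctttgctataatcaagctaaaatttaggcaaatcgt
Prosbeta3: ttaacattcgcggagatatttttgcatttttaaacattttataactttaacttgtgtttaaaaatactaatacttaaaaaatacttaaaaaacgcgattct
The capitals in Rpn5, Rpn2 and Rpt6 include AACAAT or its complement ATTGTT, a word of the Sox type, and those in Rpn12 its shorter form ACAAT. No motif was found in the stretches of Rpn11, Rpt5 and Prosbeta3. The Rpt5 stretch is short because exons of Rpt5 and RanBP3 take up the rest of its window.

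The motif counts below use every base within 50 of the summit, exons included. AACAAT occurred at 6 of 20 member summits (30%), against 11.8% of the 4634 optimal summits within 1 kb of any protein-coding TSS. The 6 were Rpn2, Rpn5, Rpn8, Rpt2, Rpt5 and Rpt6, so all belonged to the cap (6 of 13) and none to the core (0 of 7). The difference in share depended on the window. Within 25 bases of the summit AACAAT occurred at 2 of 20 (10%, Rpn2 and Rpt2), against 5.65%, and within 100 bases at 7 of 20 (35%), against 23.7%. ACAAT, which overlaps AACAAT, occurred at 7 of 20 (35%) against 26.1%. AACAAAG and ACAAAG, overlapping words of the same type, occurred at 0 of 20, against 6.62 and 12.1%. At least 1 of the 4 Sox words lay at 35% of member summits and 35.5% of promoter summits, so the members were close to the background. Within 25 bases the share was 10% of member summits, below the 19.3% of promoter summits. Within 100 bases these shares were 55 and 59.1%, and the core then had 2 genes with such a word, Prosalpha6 and Prosalpha7. The median GC content of these windows was 33.2% at member summits and 38.6% at promoter summits, and it was 31.7% for cap and 33.7% for core. The part of base composition in these shares was not tested.

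Of the other motifs, TATCGATA, the DNA replication-related element of housekeeping promoters, occurred at 2 of 20 member summits (Rpt5 and Prosbeta1), against 3.26% of promoter summits. CAGCTG, an E-box, occurred at 2 of 20 (Rpn8 and Rpn9), against 6.43%, and GAGAG at 1 (Rpn13), against 13.6%. TGACNNNGC, the type bound by Cnc and its vertebrate relatives, and CACGTG occurred at 0 of 20, against 2.7 and 1.14%. These are matches of letters in short windows, and no test was made of them.

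Sox14-GFP summits of the authors' optimal list lay near many subunit genes and near no paralogue. Of the 48 members, 20 (41.7%) had an optimal summit, against 33.5% of all protein-coding genes. All 20 were among the 32 subunit genes without a suffix, of which they made up 62.5%, while the paralogues had 0 of 16. Within the complex the lid had the largest share (7 of 8, 87.5%), followed by the base (6 of 10, 60%), the beta ring (4 of 7, 57.1%) and the alpha ring (3 of 7, 42.9%). The cap as a whole had 13 of 18 (72.2%) and the core 7 of 14 (50%). The lead of the lid depended on the TSS rule. With each summit counted only for its nearest TSS, the lid had 4 of 8 and the base 5 of 10. The core then had 4 of 14, against 25.7% of all genes. Among the 4658 strongest optimal peaks 10 of the 48 members were left, close to the 20.6% of all protein-coding genes. All 10 were among the 32 subunit genes, a share above that of all genes. They were 9 of 18 in the cap and 1 of 14 in the core. In the top peaks shared by replicates 1 and 2, with replicate 3 left out, the core had 4 genes in place of 7. No test was made of these shares, since the series has 1 group and subunit genes are not replicates of a condition.

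**Figure D1:**
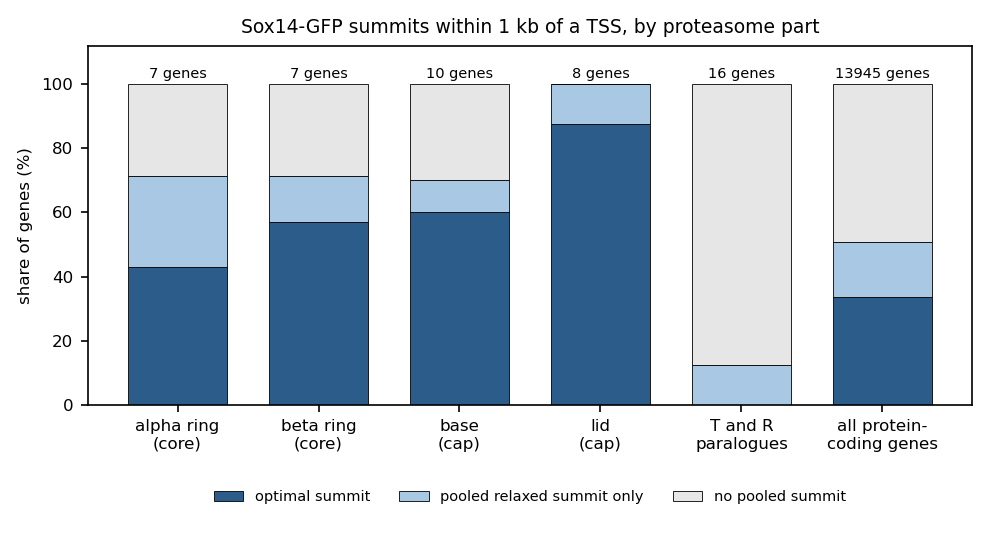
Share of genes (%) with a Sox14-GFP summit within 1 kb of a TSS, for each part of the proteasome, the T and R paralogues and all protein-coding genes. Dark segments are genes with an optimal summit, light segments genes with only a weaker summit of the pooled relaxed list, and grey segments genes with neither. The optimal share was 87.5% in the lid and 0% in the paralogues, against 33.5% of all genes. A summit counts for every gene with a TSS within 1 kb, not only for the nearest.

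In the lid, all 8 subunit genes had a summit in the pooled relaxed list, against 50.9% of all protein-coding genes. An optimal summit was present at 7 of 8, against 33.5%. Rpn5 (FBgn0028690, chr3R:5789493-5791569), a scaffold subunit, had the strongest summit of any member, with a signal of 452 and rank 864 of 9316. It ranked 923, 1034 and 857 in the relaxed lists of replicates 1, 2 and 3, which each hold 30000 peaks. A second optimal summit of Rpn5, with a signal of 289, lay 79 bp upstream of its TSS. Rpn5 was thus high in all 3 replicates. Rpn3 (FBgn0261396, chr2L:19051790-19053681), another scaffold subunit, had a signal of 367 and ranks of 1206, 1567 and 1378, with its summit in its own 5′ UTR, 31 bp downstream of the TSS. Rpn11 (FBgn0028694, chr2L:5058404-5059790), the enzyme that cuts ubiquitin from the substrate, had 2 optimal summits, 91 and 298 bp upstream, with signals of 252 and 96.3. The stronger ranked 3006, 3299 and 2335. The replicates differed little for both genes.

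The other lid genes were weaker. Rpn6, a scaffold subunit, had a signal of 207 and ranks of 3338, 4332 and 2483 in replicates 1, 2 and 3. Rpn8, the partner of Rpn11, had a signal of 204 and ranks of 2318, 5932 and 3393. Its optimal summit lay in an intron, 191 bp upstream of an internal TSS, and it is the member that drops out when only the 5′ end of the gene is used. Rpn12 had a signal of 151 and ranks of 6742, 5171 and 5233, and Rpn9 a signal of 139.8 and ranks of 9117, 3834 and 7638. Rpn9 therefore lay near the end of the top 9316 peaks in replicate 1 but well inside them in replicate 2. Rpn7 had only relaxed summits, the better of them 62 bp upstream of the TSS at rank 10343, with ranks of 8942, 11278 and 10970 in the replicates.

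In the base, 4 of the 6 ATPase genes Rpt1 to Rpt6 had an optimal summit (66.7%), against 33.5% of all protein-coding genes. Rpn2 and Rpn13 among the other subunits also had one. Rpn2 (FBgn0028692, chr3R:29153524-29157255), a large scaffold subunit, had a signal of 301 and ranks of 1836, 2129 and 1897 in replicates 1, 2 and 3. Rpt5 (FBgn0028684, chr3R:23752876-23754623) had a signal of 276 and ranks of 2074, 3086 and 2034. Rpn13, a ubiquitin receptor, had a signal of 191 and ranks of 2602, 4093 and 4266, and Rpt2 a signal of 187 and ranks of 4271, 4007 and 4288. These 4 were in the top 9316 of every replicate. Rpt6 (FBgn0020369, chrX:21316052-21317663) had a signal of 106 and ranks of 8098, 7124 and 12508, and Rpt4 (FBgn0028685, chrX:6289470-6291245), the weakest member of the optimal list, a signal of 95.1 and ranks of 8984, 12254 and 9675. Rpt6 left the top 9316 in replicate 3, and Rpt4 was inside them only in replicate 1.

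In the core, 6 of the 7 genes with an optimal summit lay below the middle of the optimal list. The exception was Prosalpha6 (FBgn0250843, chr2L:10221351-10222546), with a signal of 258, and its summit was the farthest from a member's TSS, 678 bp upstream in the 5′ UTR of Npc1a, a sterol transporter. It ranked 8279, 884 and 3065 in replicates 1, 2 and 3. That was the widest spread of any member, the highest rank number being 9.37 times the lowest. Of the proteolytic subunits, Prosbeta1 had a signal of 157 and ranks of 6746, 8025 and 3320, and Prosbeta5 had a signal of 123 and ranks of 11880, 6634 and 5407. Prosbeta2, the third of them, had no pooled summit within 1 kb and ranks of 13187 and 27768 in replicates 1 and 3 only. The structural subunit genes Prosalpha2, Prosalpha7 and Prosbeta7 had signals of 157, 121 and 119.8. Prosalpha2 ranked 3906, 7285 and 4759 in the replicates, Prosalpha7 8650, 6833 and 8611, and Prosbeta7 7019, 11489 and 7728, so only Prosbeta7 left the top 9316 in a replicate. Prosbeta3 (FBgn0026380, chr3R:9005313-9006226) had a signal of 103 and ranks of 9232, 18126 and 4635. Its highest rank number, in replicate 2, was 3.91 times its lowest, in replicate 3.

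The 20 strongest summits, 1 per gene, had a median signal of 172 and a median rank of 4354, against 196 and 3595 over the 4677 protein-coding genes with an optimal summit. The median signal was 204 for the cap and 123 for the core. The cap median was thus near that of all genes with an optimal summit, and the core median was below it. Rpn5 and Rpn3 had the highest signals. The lowest signal of the optimal list was 89.8. Rpt4 stood inside the list with a signal of 95.1, at rank 8810, and Rpn7 outside it with 80.3, at pooled rank 10343.

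**Figure D2:**
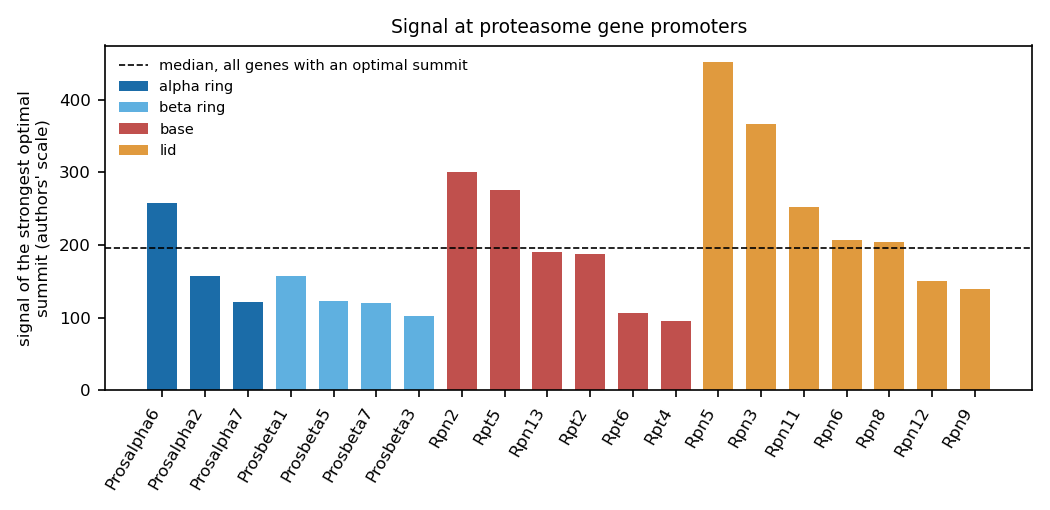
Signal of the strongest optimal summit within 1 kb of a TSS, on the authors' scale, for each of the 20 proteasome genes that had one, coloured by part of the complex. The dashed line is the median of 196 over all protein-coding genes with an optimal summit, and of the core genes only Prosalpha6, at 258, stands above it.

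Summits lay close to the start sites and mostly upstream of them. The median distance to the member's TSS was 79.5 bp, against 160.0 bp over all genes with an optimal summit. Of the 20 summits 18 (90%) lay within 200 bp, against 57.9%, and 18 (90%) lay upstream, against 76.9%, each summit being placed from the closest TSS of its gene. For Rpn6, Rpn8, Rpn9 and Prosbeta7 that was an internal TSS, and their summits lay inside the gene, downstream of its 5′ end. The exceptions downstream were Rpn3 (31 bp) and Rpt2, at 38 bp in its own 5′ UTR. Among the others, the summit lay 55 bp upstream at Rpn2, 68 at Rpn13, 80 at Rpt6, 88 at Rpn6, 104 at Rpn12, 60 at Prosalpha7, 32 at Prosbeta7, 81 at Prosbeta3 and 117 at Prosalpha2. By annotation, 10 summits lay outside genes, 5 in introns, 4 in a 5′ UTR and 1, that of Prosalpha2, in the 3′ UTR of CG5245.

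Most of these summits also lay near the start of another gene. At 16 of 20 members (80%) the nearest TSS of another protein-coding gene lay within 1 kb of the summit and on the opposite strand, against 50.9% over all genes with an optimal summit. For 7 members that TSS was closer to the summit than the member's own. The Rpt5 summit lay 33 bp from the TSS of Rpt5 and 9 bp from that of RanBP3, and the Prosbeta5 summit lay 71 bp from Prosbeta5 and 23 bp from dgo, a planar polarity gene. The Prosbeta1 summit lay 79 bp from Prosbeta1 and 42 bp from Rrp42, an exosome subunit. At Rpt4 the distances were nearly equal, 26 bp to Rpt4 and 32 bp to mldr. The strongest Rpn5 summit was in an intron of Hat1, a histone acetyltransferase, 285 bp from the TSS of Rpn5 and 134 bp from that of Hat1. The neighbour's TSS was also the closer at Rpn8 beside Slik, a protein kinase (191 bp from Rpn8 and 134 bp from Slik) and at Prosalpha6 beside Npc1a (678 bp from Prosalpha6 and 279 bp from Npc1a). With each summit counted only for the gene of the nearest TSS, 13 of 48 members kept one, close to the 25.7% of all genes. All 13 were among the 32 subunit genes, a share above that of all genes. They were 4 of 14 in the core, 5 of 10 in the base and 4 of 8 in the lid. Which gene a summit acts on cannot be told from the lists.

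Divergent promoters are common among subunit genes whether or not they carry a peak. A divergent protein-coding TSS lay upstream within 1 kb for 22 of 32 subunit genes (68.8%), for 4 of 16 paralogues (25%) and for 36.2% of all protein-coding genes. Among genes with such a neighbour, 15 of 22 subunit genes (68.2%) had an optimal summit, against 52.9% of all genes. Among genes without one, 5 of 10 (50%) did, against 22.5%. The 4 paralogues with a divergent neighbour, Prosalpha1R, Prosbeta2R2, Prosbeta4R1 and Rpt3R, had no optimal summit.

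**Figure D3:**
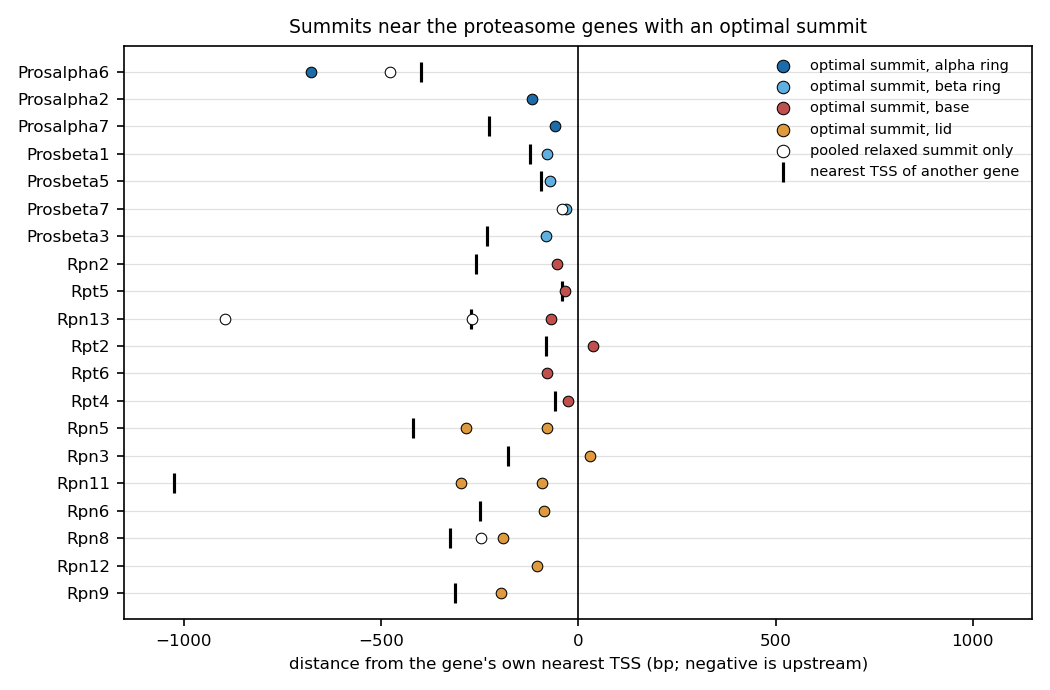
Distance in bp from the nearest TSS of the gene itself, negative upstream, of every pooled summit within 1 kb of the 20 proteasome genes with an optimal summit. Filled circles are optimal summits, open circles summits of the pooled relaxed list only, and vertical marks the nearest TSS of another protein-coding gene where it lies within 1 kb of the strongest summit, and 18 of the 20 strongest summits sit within 200 bp of the zero line. Where a gene has several TSSs, each summit is placed from the closest.

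All 20 members with an optimal summit also had a summit within 100 bp of it in the relaxed list of each of the 3 replicates. The optimal list was made from these same replicates, so this is partly fixed by selection. Of all 9316 optimal peaks, 8100 were likewise found in all 3 relaxed lists. The ranks that follow are not set beside those of other genes. In all, 15 reached the top 9316 of every replicate, 4 did so in 2 replicates and Rpt4 in 1. The median rank was 5506 in replicate 1, 4752 in replicate 2 and 4277 in replicate 3. Within a gene the highest rank number was a median of 1.64 times the lowest, and it was under 2 times for 14 members.

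Counted from the replicate lists alone, 27 members (56.2%) had a relaxed summit in all 3 replicates, against 44.5% of all protein-coding genes, and 16 (33.3%) had a top peak in all 3, against 26.5%. Among the 32 subunit genes these counts were 26 (81.2%) and 16 (50%). By part of the complex, 12 of 18 cap genes and 4 of 14 core genes had a top peak in every replicate, including 1 of 7 in the beta ring (Prosbeta1). The core share was below the cap share in these lists too, a difference that was not tested. The optimal list was made from the same replicates, so these counts are not separate from it.

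**Figure D4:**
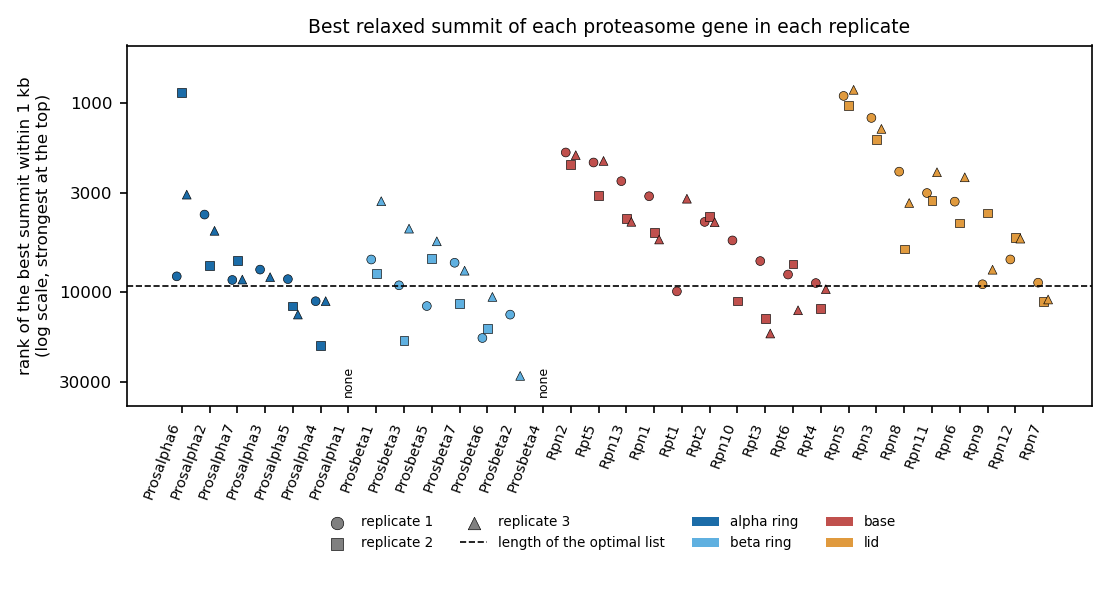
Rank of the best relaxed summit within 1 kb of a TSS in replicates 1, 2 and 3 for the 32 subunit genes, on a log scale with the strongest at the top. The dashed line is rank 9316, the length of the optimal list, "none" marks the 2 genes with no summit in any replicate, and Rpn5 ranks highest in replicates 1 and 3 and Prosalpha6 in replicate 2.

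In the pooled relaxed list 27 members (56.2%) had a summit, against 50.9% of all protein-coding genes. Beside the 20 with an optimal summit, these were 5 subunit genes and 2 paralogues. Prosalpha4, Prosalpha5, Prosbeta6 and Rpt3 stood at ranks 12140, 11557, 12573 and 12070, a little below Rpn7. In replicates 1, 2 and 3 Prosalpha4 ranked 11203, 19152 and 11190, Prosalpha5 8565, 11869 and 13174, Prosbeta6 17523, 15634 and 10630, and Rpt3 6875, 13759 and 16591. Prosalpha5 and Rpt3 thus reached the top 9316 in replicate 1 alone, and Prosalpha4 and Prosbeta6 in no replicate. The remaining 7 subunit genes were Prosalpha1, Prosalpha3, Prosbeta2, Prosbeta4, Rpn1, Rpn10 and Rpt1. Of these only Prosalpha1 and Prosbeta4 also had no summit in any replicate list.

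Rpn1 (FBgn0028695, chr3L:19915051-19918160), a scaffold of the base, stood apart among these. It had summits at ranks 3126, 4839 and 5289 in replicates 1, 2 and 3, 74 bp upstream, 9 bp downstream and 31 bp upstream of its TSS. Each replicate thus placed it within its top 9316. The nearest pooled summit lay 4739 to 4822 bp away, and the reason for the gap in the pooled list was not tested. Of the 3694 protein-coding genes with a top peak in all 3 replicates, 41 had no pooled summit within 1 kb, and Rpn1 was the only member among them. Rpt1 and Prosalpha3 each had a top peak in some replicates and no pooled summit, Rpt1 at rank 3221 in replicate 3 and 9940 in replicate 1, and Prosalpha3 at 7627 and 8361 in replicates 1 and 3. Rpn10, a ubiquitin receptor, had ranks of 5350 and 11175 in replicates 1 and 2. For these 4 genes the pooled and the replicate lists thus differ.

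The paralogues were almost empty. These were Prosalpha1R, Prosalpha3T, Prosalpha4T1, Prosalpha4T2, Prosalpha6T, Prosbeta2R1, Prosbeta2R2, Prosbeta4R1, Prosbeta4R2, Prosbeta5R1 and Prosbeta5R2 of the core and Rpn12R, Rpn13R, Rpt3R, Rpt4R and Rpt6R of the cap. No summit lay within 1 kb in any of the 3 replicate lists for 13 of 16 (81.2%), against 2 of 32 subunit genes (6.25%) and 35.2% of all protein-coding genes. The exceptions were weak. Prosbeta2R2 had summits at ranks 17260, 18736 and 27851, Rpt6R at 19532 and 19467 in replicates 1 and 3, and Prosbeta5R1 at 29518 in replicate 1, and none of these reached the top 9316. In the pooled list Prosbeta2R2 stood at rank 18543 and Rpt6R at 23459.

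The nearest optimal summit lay a median of 14076 bp from a paralogue's TSS, against 110.5 bp for the subunit genes and 3927 bp for all protein-coding genes, with a range from 3449 bp at Prosbeta2R2 to 70726 bp at Prosbeta4R2. Of the 12 subunit genes that have a paralogue here, 6 (50%) had an optimal summit, against 33.5% of all protein-coding genes. They were Prosalpha6 and Prosbeta5 of the core and Rpn12, Rpn13, Rpt4 and Rpt6 of the cap. Those with a paralogue and no optimal summit were Prosalpha1, Prosalpha3, Prosalpha4, Prosbeta2 and Prosbeta4 of the core and Rpt3 of the cap. Of the 20 without a paralogue, 14 (70%) had an optimal summit. The split by paralogue thus overlaps that by core and cap, and it was not tested. In chromatin of whole animals a site bound in few cells cannot be told apart from an unbound site.

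Other genes of the ubiquitin and proteasome pathway were taken from a list of 22 with mixed roles. They included assembly factors, activators, ubiquitin genes, ligases, deubiquitinases, shuttles, a lid subunit and the transcription factor gene cnc. Of the 22 genes, 17 (77.3%) had an optimal summit, against 33.5% of all protein-coding genes. The strongest summits of these 17 had a median signal of 167. The count was 10 among the 4658 strongest optimal peaks (20.6% of all genes), 10 in the top peaks shared by replicates 1 and 3 (28.3%) and 9 in those shared by replicates 1 and 2 (24.4%). The highest were Uch-L5, a deubiquitinase known in human cells to bind Rpn13, with a signal of 505 and ranks of 960, 666 and 580 in replicates 1, 2 and 3, cnc, with 462 and ranks of 1067, 870 and 812, and Pngl, an enzyme that strips sugars from misfolded proteins, with 452 and ranks of 1098, 875 and 787. The gene cnc encodes the fly relative of the vertebrate factors that raise proteasome gene expression, and it had 4 optimal summits within 1 kb of its TSSs. These genes ranked close to Rpn5 in every replicate. The assembly factor Pomp had a signal of 170.2, 182 bp upstream of its TSS. No optimal summit lay near Sem1, a lid subunit whose symbol falls outside the member rule, the inhibitor and activator genes PI31 and REG, the ligase Ufd4 or the shuttle gene rngo. The lists differed for rngo, which had rank 24872 in the pooled list, no summit in replicate 1 and ranks of 2774 and 2762 in replicates 2 and 3, and for Ufd4, which had a summit in replicate 3 alone, at rank 3687.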

How the data were processed

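ChIP-seq peak lists of 3 biological replicates were analysed, all on build dm6. Per the deposited text descriptions and list names, the authors called peaks against a control file. They deposited 30000 peaks and background regions for each replicate and for the pooled data (relaxed lists), and an optimal list of 9316 peaks that met a limit of irreproducible discovery rate. The deposited signal of a peak is the authors' own, comparable by rank within a list. The deposited q value, as −log10, entered 1 alternative. The sources used here name no aligner, peak caller or limit. No depth can be read from these lists, so counts and ranks carry no interval for counting error. Lists on dm3 were not used.

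Peak ends lay within the arm lengths of RefSeq's Release 6 genome, and genes were those of Ensembl's BDGP6 annotation. A summit was the peak start plus the summit offset, written 1-based. With Python 3.11.15, summits were counted within 1 kb of any TSS of 13945 protein-coding genes, and summits within 100 bp were matched between lists. All 9316 optimal peaks were the 9316 pooled peaks of highest signal. Motifs were sought on both strands within 50 bases of a summit. Counting and motif search were tested on simulated data. No significance test was made. All 22 pathway genes matched, Ufd1-like through an older symbol.

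Members, lists and motifs were chosen with earlier results of these data known. The splits by divergent neighbour and by presence of a paralogue, GC content, the distance to the nearest optimal summit and the search for genes absent from the pooled list were added after values were seen. Every member is named. Described most fully are the 6 strongest and the 3 weakest members with an optimal summit and the 4 with the closest neighbouring TSS, and of the pathway genes the 3 strongest. Alternatives changed the window, the TSS used, the peak set, the number of peaks, the q limit, the nearest-gene rule and the motif window, and left out each replicate in turn. The neighbour of 1 member is not reported here.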

Additional observations from a re-analysis of the deposited data

How the results depend on the processing

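The 20 proteasome genes with an optimal summit became 19 within 500 bp (29.6% of all genes), where Prosalpha6 dropped out, 21 within 2 kb (39.5%), where Prosbeta6 entered, and 19 with only the 5′ end of each gene (31.7%). Among the 4658 strongest optimal peaks 10 of 48 members were left, close to the 20.6% of all genes. All were among the 32 without a suffix, a share above that of all genes, and 1 of them was in the core. With each summit given only to its nearest TSS, 13 of 48 were left, close to the 25.7% of all genes. Again all were among the 32 without a suffix, a share above that of all genes. They were 4 in the core, 5 in the base and 4 in the lid. The best signal was 367, since the strongest Rpn5 summit is nearer to Hat1. Leaving out each replicate in turn replaced the optimal list with top peaks found in both others. The count then ran from 16 to 19 for all members and for those without a suffix, against 26.8, 28.3 and 24.4% of all genes without replicates 1, 2 and 3, from 4 to 7 in the core, 5 to 6 in the base and 6 to 7 in the lid, and the core had 4 without replicate 3. Rpn1 entered in each of these sets. Paralogues with an optimal summit numbered 0 in every alternative. For the pathway genes, 17 became 10 among the 4658 strongest peaks and ran from 9 to 13 with a replicate left out, with 10 without replicate 2 and 9 without replicate 3. With only the optimal peaks found in all 3 relaxed lists, 12 of these 22 genes were left and the members stayed at 20, against 30.1% of all genes. With the nearest TSS only, 14 pathway genes were left, against 25.7%. Members with a top peak in every replicate numbered 8 of 48 with 5000 top peaks, close to the 15.7% of all genes, and all were without a suffix. Without replicates 1, 2 and 3 they numbered 17, 19 and 17, against 29.1, 30.6 and 28.1% of all genes. Members with a relaxed summit in every replicate numbered 27, 31 and 28 of 48 without replicates 1, 2 and 3, against 48.5, 47.9 and 46.6% of all genes. They numbered 27 within 500 bp (39% of all genes), 28 within 2 kb (51.9%) and 26 with only the 5′ end of each gene (42.8%). Members with a pooled relaxed summit numbered 25 of 48 with a q value under 0.01 (40.3% of all genes) and 27 within 500 bp (45.9%). They numbered 29 within 2 kb (58.2%) and 27 with only the 5′ end of each gene (49.5%). Summits with a Sox word numbered 7 within 50 bases, 11 within 100 and 2 within 25, against 35.5, 59.1 and 19.3% of promoter summits. Smaller peak sets and windows hold fewer genes and words by construction, and no other cause was tested. No paired analysis was possible because the series has a single group.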

Other observations

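Across the genome, 2.64, 2.2 and 2.42% of the top 9316 peaks of replicates 1, 2 and 3 had no pooled summit within 1 kb, as at Rpn1, and 150 protein-coding genes had a relaxed summit in all 3 replicates and no pooled summit within 1 kb. The cause was not tested.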
